A study of Homo sapiens with 6 samples.

Results

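Glutathione and thioredoxin are the main thiol systems with which cells dispose of peroxides, and 9 genes of these systems that are targets of the transcription factor NRF2 were followed here in A549 cells, an established human lung adenocarcinoma line in which NRF2 is constitutively active. The genes were chosen by symbol: GCLC, GCLM, GSS, SLC7A11, GSR, GPX2, TXN, TXNRD1 and SRXN1. Every probe set annotated with 1 of these symbols alone was taken, which gave 23 of the 49372 probe sets on the array and 9 of the 18132 genes with a probe set of their own. The study compared 3 arrays of A549 cells that received a scrambled control with 3 arrays of A549 cells in which the long noncoding RNA LINC00525 was silenced, called knockdown arrays below. The titles mark both groups as "sh", whereas the treatment text speaks of small interfering RNA. Cells of both groups were grown in the same medium with serum, and no oxidant or NRF2 activator is named for either. The labels give no time after transfection and do not say whether the 3 arrays of a group came from separate cultures. P-values therefore measure the spread between these arrays, which may be technical. Genotype fields of knockdown arrays 2 and 3 name LINC00526 and LINC00527, while titles and design text name LINC00525 throughout, so values without these 2 arrays are given beside the main results.

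NRF2 is a basic leucine zipper factor that KEAP1, an adaptor of the CUL3 ubiquitin ligase, marks for degradation. When it escapes KEAP1 it pairs with small MAF proteins and binds antioxidant response elements near its target genes. SLC7A11 imports cystine, the glutamate-cysteine ligase made of GCLC and GCLM joins the cysteine to glutamate, and GSS adds glycine to complete glutathione. GPX2 spends glutathione on peroxides and GSR restores it with NADPH. TXN reduces disulfides in proteins and peroxiredoxins, TXNRD1 restores TXN, and SRXN1 repairs peroxiredoxins that have been oxidized too far.

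Promoter sequences are shown first because the response element is what ties the genes to 1 factor. RefSeq promoter windows on GRCh38.p14, from 250 bases before to 50 bases after an annotated start, held 7 windows for 6 of the 9 genes: GCLC, GCLM, GPX2, TXN, SRXN1 and TXNRD1, the last with 2. GSR, GSS and SLC7A11 had no entry. The core of the element was searched as TGACNNNGC on both strands, a pattern that can overlap the AP-1 site TGACTCA. It was present in 4 of the 7 windows, those of GCLM, GPX2 and TXNRD1, and in 13.3% of all 35116 windows. AP-1 letters were in 0 of the 7 (4.95% of all windows), and TGATGNAA, searched as a core of the element that ATF4 binds with C/EBP proteins, was in 0 of the 7 (3.62% of all windows). The 250 bases upstream of the start are printed 5′ to 3′ for GCLC, GCLM, GPX2 and SRXN1, where at least 1 probe set fell. For TXNRD1, whose probe sets did not pass, the match and 20 bases on either side are shown. Capitals mark the element core, which lies on the strand opposite the gene in GCLM, GPX2 and the second TXNRD1 window.
GCLC, chr6:53545102-53545351 (- strand): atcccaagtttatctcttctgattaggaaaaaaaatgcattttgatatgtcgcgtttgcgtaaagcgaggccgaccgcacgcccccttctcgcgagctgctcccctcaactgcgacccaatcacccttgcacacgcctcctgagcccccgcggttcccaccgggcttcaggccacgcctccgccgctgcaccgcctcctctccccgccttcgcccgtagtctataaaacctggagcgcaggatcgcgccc
GCLM, chr1:93909431-93909680 (- strand): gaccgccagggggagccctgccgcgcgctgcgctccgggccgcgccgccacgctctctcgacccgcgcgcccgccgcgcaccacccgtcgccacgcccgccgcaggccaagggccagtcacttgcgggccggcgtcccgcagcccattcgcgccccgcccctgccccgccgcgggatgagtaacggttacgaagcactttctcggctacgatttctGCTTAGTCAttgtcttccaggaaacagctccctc
GPX2, chr14:64942746-64942995 (- strand): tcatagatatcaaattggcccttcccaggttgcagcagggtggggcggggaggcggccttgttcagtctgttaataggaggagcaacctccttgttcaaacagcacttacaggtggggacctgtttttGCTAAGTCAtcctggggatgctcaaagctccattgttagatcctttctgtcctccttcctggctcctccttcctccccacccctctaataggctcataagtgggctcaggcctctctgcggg
SRXN1, chr20:653201-653450 (- strand): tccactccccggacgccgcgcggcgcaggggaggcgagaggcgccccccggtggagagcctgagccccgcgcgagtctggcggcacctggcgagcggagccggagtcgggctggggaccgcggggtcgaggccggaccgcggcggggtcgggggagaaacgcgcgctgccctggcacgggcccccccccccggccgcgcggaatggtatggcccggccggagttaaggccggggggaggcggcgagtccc
TXNRD1, first window, chr12:104215660-104215708 (+ strand): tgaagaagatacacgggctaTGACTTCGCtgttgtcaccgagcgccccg
TXNRD1, second window, chr12:104286910-104286958 (+ strand): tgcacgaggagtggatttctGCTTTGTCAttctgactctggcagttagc

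The GCLM match, TGACTAAGC, covers bases 34 to 26 upstream of the start, and the GPX2 match, TGACTTAGC, covers bases 122 to 114. The first TXNRD1 window has TGACTTCGC at bases 99 to 91 and a further match, TGACGGAGC, that runs from base 8 upstream into the start itself. The second has TGACAAAGC at bases 102 to 94. GCLC, the gene with the largest difference on the arrays, has no match in its window, and neither do SRXN1 and TXN, so that the presence of these letters near the start did not separate the genes that fell from those that did not pass. A match is a description of letters, and elements farther from a start are outside these windows.

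The targeted transcript was checked before the members. LINC00525 was at 3.86, 3.74 and 3.97 log2 units on the control arrays and at 3.67, 3.45 and 3.54 on the knockdown arrays, so the groups did not overlap. It fell by 0.30 ± 0.075 (SE, limma adjusted p = 0.0372), and by 0.19 without knockdown arrays 2 and 3 (adjusted p = 0.363). The call was also lost when control array 1, control array 3, knockdown array 2 or knockdown array 3 was left out (highest adjusted p = 0.111). Epithelial markers had mean signals of 9.85 to 9.87 over the 6 genes EPCAM, CDH1, KRT7, KRT8, KRT18 and KRT19 on control arrays and 9.78 to 9.85 on knockdown arrays. KRT18, the brightest, was at 12.45 on control arrays and EPCAM, the dimmest, at 5.43, not far above the array medians of 5.10 to 5.11. The leukocyte (7 genes), fibroblast (6) and endothelial (4) lists averaged 3.44 to 4.35 on every array, against 2.27 to 4.60 for the control-array means of 17 Tag probe sets that match no human transcript. Single markers above that range on control arrays were CD14 at 6.25, PDGFRB at 4.86, KDR at 4.68, PECAM1 at 4.65 and CD3E at 4.64. LINC00525 itself lay within it, so its difference comes from a probe set not clearly above background. None of the 17 lay above any of the 23 member probe sets. Among the epithelial markers KRT19 rose by 0.29 and KRT8 fell by 0.15 (limma adjusted p = 0.00409 and 0.0474), and their part in the results was not tested. The KRT8 call was lost with any array left out (highest adjusted p = 0.146) and after cyclic loess (adjusted p = 0.0814).

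Of the 9 genes, 3 fell after LINC00525 silencing, 0 rose and 6 did not pass the test. Those that fell were GCLC, SRXN1 and GPX2. A gene was represented by its probe set with the highest mean signal, differences were tested with limma, and the threshold was an adjusted p under 0.05 over all 18132 genes. By that rule 12.6% of all genes were called, 6.83% as lower and 5.77% as higher. Among the 3348 genes with a mean signal of at least 8, as all 9 members have, the shares were 22.3% called and 13.6% lower. The median log2 difference was -0.11 over the 9 genes and -0.01 over all genes. The groups did not overlap for 6 of the 9 genes, each with the knockdown arrays lower, as for 17.9% of all genes, while 12.9% were higher without overlap (30.8% in either direction). No share without overlap was taken among genes with a mean signal of at least 8. In bulk RNA of a culture, fewer cells that express a gene and less of its RNA per cell cannot be told apart. With knockdown arrays 2 and 3 left out, 1 of the 9 genes, GCLC, passed, as did 256 of all genes; this fit takes the lone knockdown array to vary as the control arrays do.

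**Figure D1:**
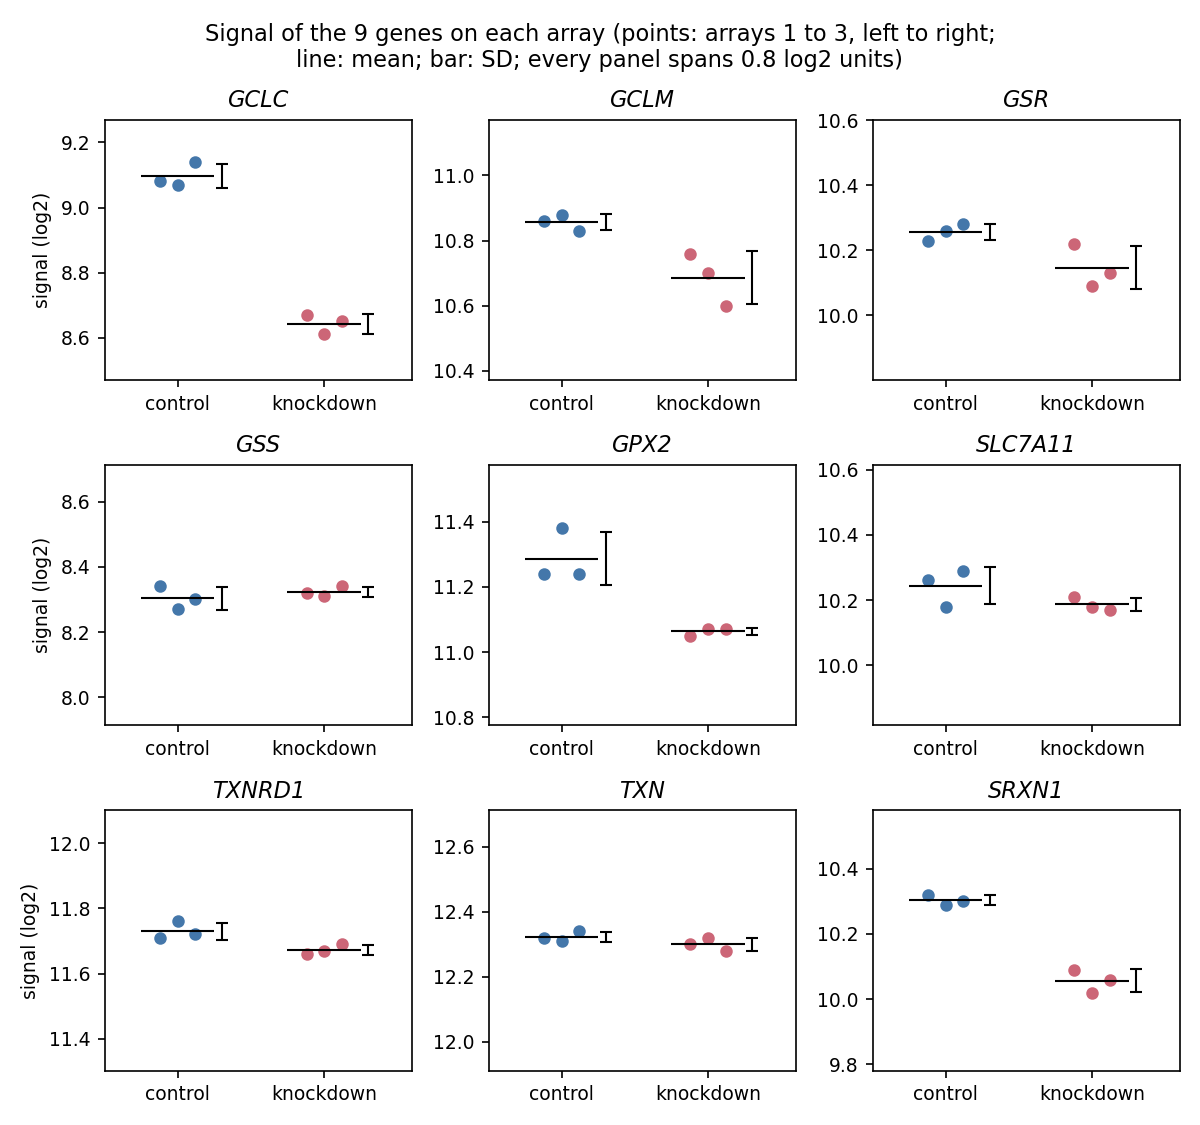
Signal of the 9 genes in log2 units on each array, with control arrays in blue and knockdown arrays in red; points are arrays 1 to 3 from left to right, lines are means and bars are SDs. Groups are well apart for GCLC, GPX2 and SRXN1 and overlap for GSS, SLC7A11 and TXN.

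Glutamate-cysteine ligase, the rate-limiting enzyme of glutathione synthesis, was the step with the largest difference, and it lay in the catalytic subunit. GCLC was at 9.08, 9.07 and 9.14 log2 units on the control arrays and at 8.67, 8.61 and 8.65 on the knockdown arrays. Every knockdown array lay below every control array, by several times the spread within either group. The gene fell by 27.0%, from a mean of 9.10 ± 0.038 to 8.64 ± 0.031 (SD, n = 3 each), a log2 difference of -0.45 ± 0.039 (SE, limma adjusted p = 0.000491, 95% confidence interval -0.55 to -0.36). It was past the threshold in all 16 alternatives run, with log2 differences of -0.73 to -0.42. Without knockdown arrays 2 and 3 it was -0.43 (adjusted p = 0.0482).

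All 4 GCLC probe sets fell. Among all 49293 probe sets that are not array controls, 9.85% were called, 5.25% as lower and 4.59% as higher. Their log2 differences were -0.45, -0.43, -0.45 and -0.35, with limma adjusted p-values of 0.000713, 0.00142, 0.0019 and 0.00799 over all probe sets. The smallest of these differences came from the probe set with the lowest signal, at 5.90 on control arrays against 8.63 to 9.10 for the other 3. On the lowest one the knockdown arrays gave 5.62, 5.43 and 5.58 and the control arrays 5.91, 5.90 and 5.88, again without overlap. Probe sets of 1 gene share the RNA of the same arrays and are no replicates of each other.

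GCLM, the modifier subunit that lowers the enzyme's need for glutamate, was lower on every knockdown array, but whether it passed depended on the probe set. The brighter probe set gave 10.86, 10.88 and 10.83 on control arrays and 10.76, 10.70 and 10.60 on knockdown arrays. This difference of -0.17 ± 0.049 (SE) missed the threshold (limma adjusted p = 0.0632, 95% confidence interval -0.28 to -0.06). The dimmer probe set gave 6.37, 6.46 and 6.39 against 6.15, 6.16 and 5.97, and it fell by 0.31 ± 0.061 (SE, limma adjusted p = 0.0178 over all probe sets). That second call was lost without control array 2 (adjusted p = 0.0743), without control array 3 (adjusted p = 0.0574) and without knockdown arrays 2 and 3 (adjusted p = 0.142). With both averaged the gene was at -0.24 (adjusted p = 0.0158), and it also passed without knockdown array 1 (adjusted p = 0.0491).

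GSS, which completes glutathione, did not pass and lay at nearly the same signal in both groups. Its control arrays read 8.34, 8.27 and 8.30 and its knockdown arrays 8.32, 8.31 and 8.34, so the groups overlapped. The log2 difference was 0.02 ± 0.037 (SE, limma adjusted p = 0.79), with a 95% confidence interval of -0.07 to 0.11, and the second probe set was at 0.04 (adjusted p = 0.616). When the arrays were set level on their hybridization controls, which shifts all genes of an array equally, the GSS probe sets were at -0.26 and -0.24.

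SLC7A11, the cystine carrier of system xc-, is a target of ATF4 as well as of NRF2, and none of its 3 probe sets passed. The brightest gave 10.26, 10.18 and 10.29 on control arrays and 10.21, 10.18 and 10.17 on knockdown arrays. Its log2 difference was -0.06 ± 0.042 (SE, limma adjusted p = 0.457, 95% confidence interval -0.15 to 0.04). Another probe set was at 0.02 (adjusted p = 0.865), and the last, with 8.46, 8.42 and 8.45 against 8.29, 8.31 and 8.36, was at -0.12 ± 0.042 (SE, adjusted p = 0.111). Of the 3, only this last one separated the groups. SLC3A2, the partner chain of SLC7A11 in the plasma membrane, was at 0.09 ± 0.041 (SE, limma adjusted p = 0.193).

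**Figure D2:**
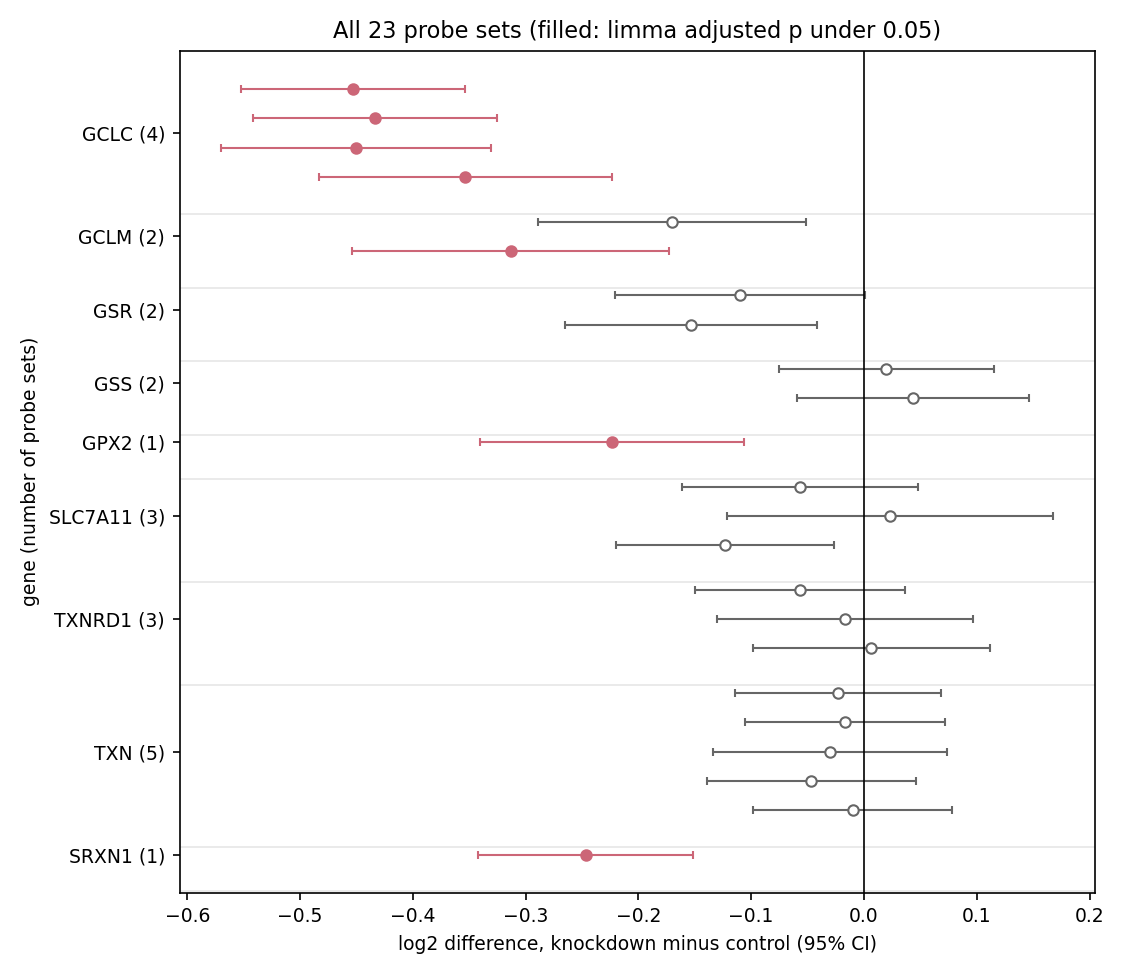
Log2 difference, knockdown minus control, of each of the 23 probe sets with its 95% confidence interval; filled points passed limma's test at an adjusted p under 0.05 over all probe sets. The 7 filled points are the 4 of GCLC, 1 of the 2 of GCLM and the single ones of GPX2 and SRXN1, all to the left of 0.

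Over all members, 7 of the 23 probe sets fell and 0 rose, against 5.25% and 4.59% of all probe sets. Among genes with a mean signal of at least 8 the share called lower was 13.6%, and no such share was taken for probe sets. Below 0 were 19 of the 23 estimates, a count with no share of all probe sets beside it. The groups did not overlap for 14 of the 23, each with the knockdown arrays lower, as for 16.8% of all probe sets (28.6% in either direction). This share was not taken among bright probe sets either. The median was -0.06 over the 23 and -0.01 over all probe sets. TXN has 5 of the 23 and GPX2 and SRXN1 have 1 each, so these counts weigh the genes unequally. With knockdown arrays 2 and 3 left out, 0 of the 23 passed, while 501 of all probe sets did.

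The enzymes that spend and restore glutathione differed in whether they passed. GPX2, a selenium-containing glutathione peroxidase of epithelia, was at 11.24, 11.38 and 11.24 on control arrays and at 11.05, 11.07 and 11.07 on knockdown arrays. The knockdown arrays were tightly grouped below all 3 control arrays. GPX2 fell by 14.3%, a log2 difference of -0.22 ± 0.048 (SE, limma adjusted p = 0.0234, 95% confidence interval -0.33 to -0.11). The call held without control array 1 or control array 3 and was lost with any other single array left out. Without control array 2, the highest, the difference was -0.18 (adjusted p = 0.06). Without knockdown array 1, 2 or 3 it was -0.22, -0.23 and -0.23 (adjusted p = 0.066, 0.0685 and 0.0599). Without knockdown arrays 2 and 3 it was -0.24 (adjusted p = 0.194).

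GSR, the glutathione reductase, did not pass the test. Its brighter probe set gave 10.23, 10.26 and 10.28 on control arrays and 10.22, 10.09 and 10.13 on knockdown arrays. The groups did not overlap, by a gap no wider than the last decimal of the deposited values, and the log2 difference was -0.11 ± 0.045 (SE, limma adjusted p = 0.168, 95% confidence interval -0.21 to -0.01). The other probe set was at -0.15 (adjusted p = 0.0903), and with both averaged GSR was at -0.13 and past the threshold (adjusted p = 0.0385).

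In the thioredoxin system SRXN1 fell, while TXN and TXNRD1 did not pass. SRXN1, the sulfiredoxin, was at 10.32, 10.29 and 10.30 on control arrays and at 10.09, 10.02 and 10.06 on knockdown arrays. The gap between the groups exceeded the whole range within each. SRXN1 fell by 15.7%, from 10.30 ± 0.015 to 10.06 ± 0.035 (SD, n = 3 each), a log2 difference of -0.25 ± 0.037 (SE, limma adjusted p = 0.00612, 95% confidence interval -0.33 to -0.16). The call held with each single array left out (highest adjusted p = 0.0272). It was lost without knockdown arrays 2 and 3 together, at -0.21 (adjusted p = 0.122). Its only probe set carries the suffix _s_at, which marks probes shared by several transcripts.

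TXNRD1, the cytosolic thioredoxin reductase, was at 11.71, 11.76 and 11.72 on control arrays and at 11.66, 11.67 and 11.69 on knockdown arrays. The log2 difference was -0.06 ± 0.036 (SE, limma adjusted p = 0.374, 95% confidence interval -0.14 to 0.03). Its other probe sets were at -0.02 and 0.01 (adjusted p = 0.88 and 0.95), and both overlapped between groups.

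TXN, the thioredoxin itself, did not pass, and its difference had the smallest standard error of the 9 genes, 0.035 log2 units. The brightest of its 5 probe sets read 12.32, 12.31 and 12.34 on control arrays and 12.30, 12.32 and 12.28 on knockdown arrays. All 5 log2 differences lay between -0.05 and -0.01, and none passed (lowest limma adjusted p = 0.538 over all probe sets). For the brightest the 95% confidence interval of the gene-level difference was -0.11 to 0.06. Of the 5 probe sets, 4 carry the suffix _x_at and 1 the suffix _s_at, so that related transcripts can add to their signal.

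Because the hybridization and poly-A spike-in controls were higher on the knockdown arrays, the size of each difference above depends on what the arrays are set level on. The 18 hybridization probe sets differed by 0.28 log2 units and the 24 poly-A probe sets by 0.14. Scaled to the former, the median gene moved from -0.01 to -0.29, all 9 members and all 23 probe sets fell, and GCLC reached -0.73. Scaled to the latter, the median gene was at -0.15 and 8 of the 9 members fell, GSS being the exception at -0.12 (adjusted p = 0.0803). Cyclic loess called the same number of members, 3, with GCLC at -0.42, SRXN1 at -0.22 and GPX2 at -0.20. Over all genes the split of rises against falls was 1046 against 1239 as deposited, 1290 against 909 after cyclic loess, 497 against 8397 with poly-A scaling and 232 against 15085 with hybridization scaling. The direction was below 0 in every alternative for GCLC, GCLM, GSR, GPX2, TXNRD1 and SRXN1. It turned for GSS under both spike-in scalings, for TXN under cyclic loess (0.002) and for SLC7A11 without _x_at and _s_at probe sets (0.02).

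**Figure D3:**
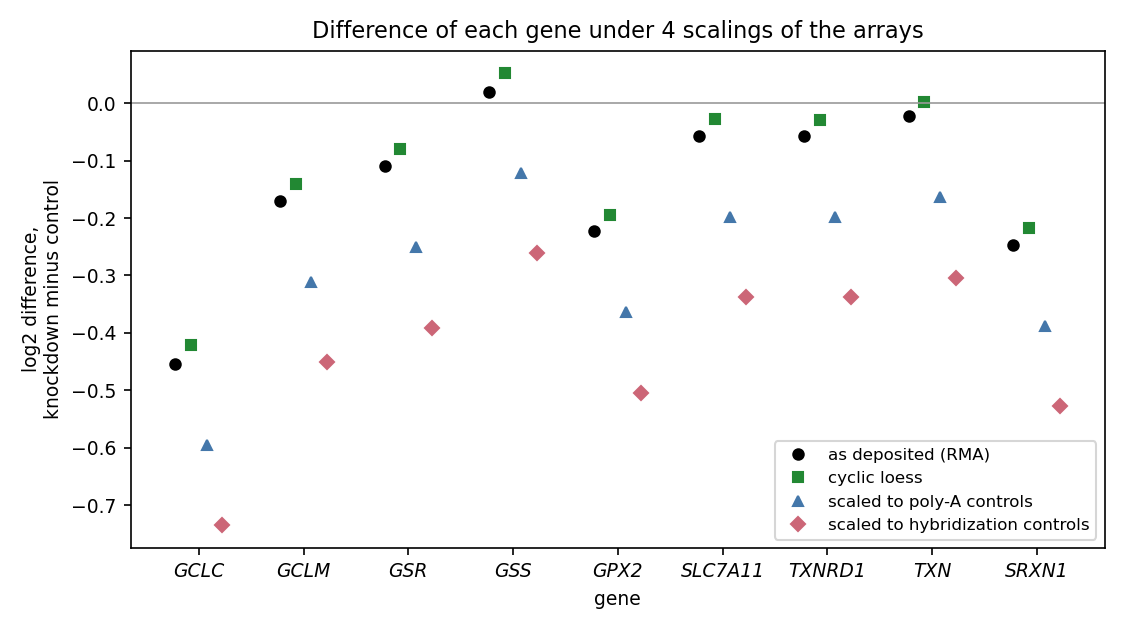
Log2 difference, knockdown minus control, of each of the 9 genes as deposited, after cyclic loess and scaled to the poly-A or hybridization controls. Each scaling moves the 9 genes by nearly the same amount, and GCLC stays lowest at -0.73 to -0.42.

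The difference between 2 genes on 1 array is untouched by a scaling that adds 1 constant to that array, as both spike-in scalings do, though not by cyclic loess. On the control arrays GCLC minus GSS was 0.74, 0.80 and 0.84 log2 units, and on the knockdown arrays it was 0.35, 0.30 and 0.31, a change of -0.47. For GCLM, SRXN1, GPX2 and TXN in place of GSS the change was -0.28, -0.21, -0.23 and -0.43. GCLC was taken for this because it had the largest difference of the 9 genes, which fixes the direction of all 8 such changes, so they are given as a description of size with no test.

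The 3 genes whose 6 array values, centred on the control mean, were closest to those of GCLC were NCOA5, RBM14 and FIGNL1. Their root mean square differences from GCLC over the 6 arrays were 0.030, 0.032 and 0.034 log2 units. NCOA5 was at 6.78, 6.80 and 6.83 on control arrays and 6.35, 6.26 and 6.33 on knockdown arrays, a log2 difference of -0.49.

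Upstream of the members, the transcript of NRF2 did not pass the test, while KEAP1 and CUL3 of its degradation machinery fell. NRF2 is constitutively active in A549 cells, and whether these transcript differences change its degradation was not tested. NFE2L2, which encodes NRF2, was at 9.81, 9.75 and 9.74 on control arrays and at 9.69, 9.86 and 9.71 on knockdown arrays (log2 -0.01 ± 0.054 SE, limma adjusted p = 0.906). Of 9 measured regulators 2 rose and 2 fell, against 5.77% and 6.83% of all genes, with a median log2 difference of 0.02. KEAP1, the adaptor that marks NRF2 for degradation, was at 7.88, 7.97 and 7.87 against 7.58, 7.68 and 7.66 and fell by 0.27 ± 0.047 (SE, limma adjusted p = 0.0107). CUL3, the scaffold of the same ligase, fell by 0.20 ± 0.034 (SE, limma adjusted p = 0.0109). RBX1, its RING subunit, was at -0.11 and did not pass (adjusted p = 0.183). SQSTM1, the autophagy receptor that sequesters KEAP1, rose by 0.19 ± 0.036 (SE, limma adjusted p = 0.0149), but was at -0.09 when scaled to the hybridization controls and lost its call without control array 1 or 2 (highest adjusted p = 0.0535).

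MAFF, a small MAF protein that can pair with NRF2, rose by 1.16 ± 0.10 (SE, limma adjusted p = 0.000543). Its control arrays read 4.76, 4.79 and 4.45 and its knockdown arrays 5.79, 5.98 and 5.71. The 2 MAFF probe sets disagree in size: this one carries the suffix _x_at, and the other rose by 0.25 ± 0.055 (SE, limma adjusted p = 0.0289 over all probe sets). On control arrays the _x_at probe set was the dimmer, at 4.67 against 4.79, so it stands for MAFF only through its knockdown values. Both control levels are close to the brightest Tag probe set, at 4.60. With both probe sets averaged MAFF was at 0.70 (limma adjusted p = 3.45e-05). BACH1, which competes with NRF2 for the same element, was at 3.52 on control arrays, no brighter than the brightest Tag probe set, and gave 0.04 (adjusted p = 0.696).

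Of 21 other NRF2 targets measured, 5 fell, 0 rose and 16 did not pass, with a median log2 difference of -0.09. Falls outnumbered rises over all genes too, 6.83% against 5.77%, and 13.6% of genes with a mean signal of at least 8 fell. HMOX1, the haem-degrading oxygenase that BACH1 represses, was at 10.11, 10.29 and 10.13 on control arrays and at 9.34, 9.34 and 9.50 on knockdown arrays, a log2 difference of -0.78 ± 0.066 (SE, limma adjusted p = 0.000414). The other 4 falls were small: ME1, the NADPH-making malic enzyme, at -0.22, the conjugate exporter ABCC2 at -0.18, PIR at -0.16 and PGD of the pentose phosphate pathway at -0.16. Of these, PIR lost its call when any array was left out, ME1 with any but knockdown array 2, and ABCC2 and PGD with any but control array 1 (highest adjusted p = 0.11, 0.111, 0.0894 and 0.146 for ME1, PIR, ABCC2 and PGD). Cyclic loess also ended the calls of ME1, PIR and PGD (adjusted p = 0.0552, 0.0744 and 0.0806), and averaging probe sets those of ABCC2 and PGD (adjusted p = 0.0725 and 0.0608).

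NQO1, the quinone reductase used as a standard readout of NRF2, was at 12.32, 12.33 and 12.32 on control arrays and at 12.33, 12.33 and 12.31 on knockdown arrays. Its log2 difference was 0.00 ± 0.034 (SE, limma adjusted p = 1). The dimmer NQO1 probe set, at 11.58 on control arrays, was at -0.05 with every knockdown array lower (limma adjusted p = 0.529 over all probe sets). The aldo-keto reductases AKR1B10, AKR1C1, AKR1C2 and AKR1C3 were at -0.07, -0.04, -0.04 and -0.07, and none passed. Like every gene NQO1 was shifted by the hybridization scaling, to -0.28.

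**Figure D4:**
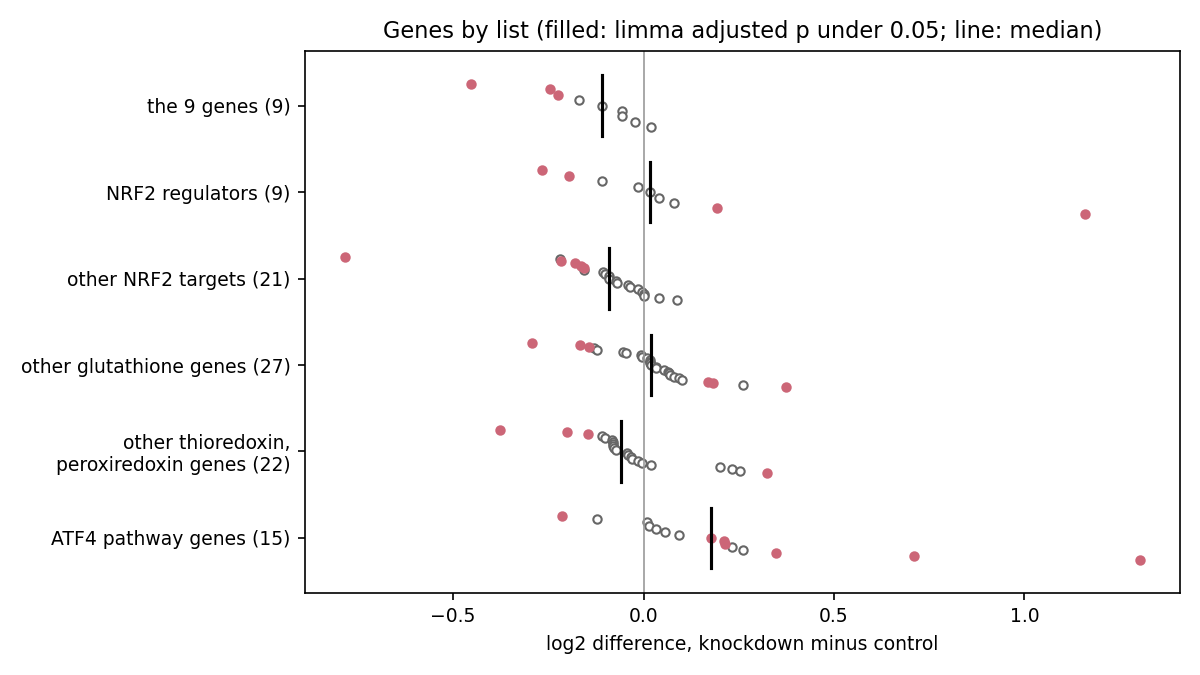
Log2 difference, knockdown minus control, of the 9 genes and of the measured genes of 5 pathway lists; filled points passed limma's test at an adjusted p under 0.05 over all genes, and vertical lines are list medians. HMOX1 lies at -0.78 among the other NRF2 targets, and MAFF at 1.16 and DDIT3 at 1.30 are the points farthest to the right.

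Among the other genes of glutathione use and breakdown, 3 of 27 measured rose and 3 fell, with a median of 0.02. The shares over all genes were 5.77% and 6.83%. GLRX, the glutaredoxin that removes glutathione from proteins, rose by 0.37 ± 0.037 (SE, limma adjusted p = 0.000865) and was at 0.09 with hybridization scaling (adjusted p = 0.352). In the probe set fit its other probe sets were at 0.40 and 0.16 (limma adjusted p = 0.00225 and 0.108). The latter was the brightest on control arrays, at 8.83 against 8.77, so the named probe set stands for GLRX only through its knockdown values. With its probe sets averaged GLRX was at 0.31 (limma adjusted p = 0.00173). CHAC2, which degrades glutathione, fell by 0.29 ± 0.036 (SE, limma adjusted p = 0.0026). OPLAH and GSTM3 rose by 0.18 and 0.17 but were at -0.10 and -0.11 when scaled to the hybridization controls, and GSTM3 was at 0.001 with its probe sets averaged. Their calls were lost with any single array left out for GSTM3 and with any but knockdown array 3 for OPLAH (highest adjusted p = 0.137 and 0.132). The other 2 falls, GGCT at -0.17 and GPX8 at -0.14, were lost with any array left out (highest adjusted p = 0.117 and 0.137) and after cyclic loess (adjusted p = 0.0763 and 0.102).

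Of 22 other measured thioredoxin and peroxiredoxin genes, 1 rose and 3 fell, with a median of -0.06. Over all genes 5.77% rose and 6.83% fell, and 13.6% of those with a mean signal of at least 8 fell. RRM1 and RRM2, subunits of the ribonucleotide reductase that thioredoxin and glutaredoxin supply with electrons, fell by 0.38 ± 0.042 and 0.20 ± 0.036 (SE, limma adjusted p = 0.00165 and 0.0128). RRM2 lost its call without control array 2 (adjusted p = 0.0503). TXNL1 fell by 0.15, a call lost with any array left out (highest adjusted p = 0.118) and after cyclic loess (adjusted p = 0.075), and SESN1, a sestrin, rose by 0.32 ± 0.052 (SE, limma adjusted p = 0.00765), or 0.04 with hybridization scaling (adjusted p = 0.673). The peroxiredoxins PRDX1, PRDX2, PRDX3, PRDX4 and PRDX6 were at -0.04, -0.11, -0.08, -0.003 and -0.04 on their brightest probe sets, none of which passed. That of PRDX2 was dim, at 4.89 on control arrays. PRDX6 depended on the probe set: in the probe set fit, 2 dimmer ones fell by 0.24 and 0.23 (limma adjusted p = 0.0211 and 0.0184), and with its probe sets averaged the gene was at -0.15 (adjusted p = 0.0198).

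In the ATF4 pathway, the other route to SLC7A11, 6 of 15 measured genes rose and 1 fell, with a median of 0.18. Among all genes 5.77% rose and 6.83% fell. DDIT3, the transcription factor CHOP, was at 5.15, 5.14 and 5.06 on control arrays and at 6.34, 6.47 and 6.45 on knockdown arrays, a rise of 1.30 ± 0.049 (SE, limma adjusted p = 7.82e-06). ATF3 rose by 0.71, TRIB3 by 0.35 and CEBPB by 0.21, and SLC7A5 fell by 0.21 (limma adjusted p = 0.00239, 0.00328, 0.0203 and 0.0178). The size of the ATF3 rise depended on the probe set: the others were at 1.66, 1.12, 0.82, 0.20, 0.04 and 0.03. With all of them averaged ATF3 was at 0.65. With hybridization scaling TRIB3 was at 0.07 and CEBPB at -0.07 (adjusted p = 0.51 and 0.49). CEBPB lost its call without control array 2 or 3 or knockdown array 1 or 2 (highest adjusted p = 0.077), and SLC7A5 without control array 2 or 3 or knockdown array 2 (highest adjusted p = 0.0694). The remaining rises, CEBPG and VLDLR at 0.18 and 0.21, were at -0.10 and -0.07 with hybridization scaling. CEBPG lost its call with any array left out and VLDLR with any but control array 3 (highest adjusted p = 0.0713 and 0.139). ATF4 itself was at 0.01 ± 0.036 (SE, limma adjusted p = 0.892). No test compared SLC7A11 with these genes. Without knockdown arrays 2 and 3, the genes of these 5 lists past the threshold were MAFF, HMOX1 and DDIT3 (adjusted p = 0.046, 0.0281 and 0.00432).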

How the data were processed

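The authors deposited log2 values, and the submitters' processing notes name RMA. Which software ran it is not given in the sources used here. Although the design text mentions sequencing, these are values of arrays. Biotin-labelled cRNA was made from 100 ng of total RNA, per the labels' protocols. Array medians were 5.10 to 5.11, so no further normalization was applied. RMA makes differences relative to the typical gene and understates those near background. Of the probe sets, 44988 had 1 gene symbol in the platform annotation, 1832 several and 2552 none (79 array controls included); the RefSeq gene table (GRCh38.p14) held the gene identifiers of 44961 of these 44988. Some listed genes, among them MAFK, FTH1, TRIM16, NR0B1, GSTT2, GGT1, CBS, TXNRD3, TXNDC5 and PRDX5, lacked a probe set with their symbol alone and were not analysed here.

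The 3 knockdown and 3 control arrays entered 1 limma fit without covariates (version 3.58.1, R 4.3.3, lmFit and eBayes, 2-sided tests, Benjamini-Hochberg adjustment). The fit was checked on simulated data. Members and lists were chosen with earlier results of these data known. Named from each list were the genes past the threshold where 5 or fewer, otherwise the 4 with the largest differences (5 for the ATF4 list, where a pair tied); the remaining named list genes were chosen after their values were seen. The number of arrays limits precision. Any 2 arrays shared identical values at 4.81% of probe sets or fewer. Promoter windows came from RefSeq. Alternatives covered probe set summary, signal filter, cross-hybridizing probe sets, scaling, moderation, replicate number and left-out arrays. Figures used matplotlib 3.10.9.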

Additional observations from a re-analysis of the deposited data

How the results depend on the processing

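GCLC was past the threshold under all 16 alternatives, and SRXN1 under 14 of 15. Against 3 member genes and 7 member probe sets in the main fit, all falls, the counts were 9 and 23 with hybridization scaling, 8 and 17 with poly-A scaling, 6 and 11 with trend and robust moderation, 5 genes with probe sets averaged, 4 and 10 at a mean signal of at least 5, and 2 and 5 without moderation. These last 5 include a TXN probe set at 11.60 on all control and 11.59 on all knockdown arrays, whose spread is 0 after rounding. Without _x_at and _s_at probe sets the counts were 2 and 6, SRXN1 and TXN not being measured. Leaving out single arrays gave 2 to 3 genes and 5 to 6 probe sets, and leaving out knockdown arrays 2 and 3 together, an alternative chosen after seeing the data, gave 1 and 0. Reversed under hybridization scaling were GSS (-0.26 at gene level, and -0.26 and -0.24 for its probe sets), an SLC7A11 probe set (-0.26) and a TXNRD1 probe set (-0.27), a scaling that lowers every gene by construction.

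Over all genes 2285 passed in the main fit, 15317 and 8894 with hybridization and poly-A scaling, 3502 with trend and robust moderation, 1314 without moderation, 1104 to 1575 without single arrays and 256 without knockdown arrays 2 and 3. Over all probe sets these counts were 4853, 40795, 21673, 8064, 2295, 2215 to 3549 and 501, and 2994 without _x_at and _s_at probe sets. Pairing of the arrays by replicate number was weak at most and was not tested. Deviations of same-numbered arrays correlated at 0.092, 0.058 and -0.0095, though 4 of 6 arrays correlated best with their own number. With the number as a replicate block, 3 member genes and 6 member probe sets passed, GPX2 at probe set level being lost (adjusted p = 0.0554), and 1564 of all genes passed. Scan or slide batches were not analysed here.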
